A study of Mus musculus with 11 samples.

Results

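The circadian clock genes described here were 10 genes taken by symbol from a table of 47643 gene symbols, namely Arntl, Clock, Per1, Per2, Per3, Cry1, Nr1d1, Nr1d2, Dbp and Tef, and each was read in all 11 libraries of the table. The clock is a feedback loop of transcription. Its activators ARNTL (BMAL1) and CLOCK bind E-box elements and switch on the Per and Cry genes, whose proteins return to block those activators, while the nuclear receptors REV-ERB alpha (Nr1d1) and REV-ERB beta (Nr1d2) repress Arntl through ROR response elements. The PAR bZIP factors DBP and TEF pass the rhythm on through D-box elements, and in skin the loop runs in fibroblasts, keratinocytes and hair follicle cells, so that the level of most of these genes depends on the hour at which the tissue is taken.

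The libraries held poly-A RNA of fibroblasts sorted by FACS from mouse back skin, as live cells with CD140a (PDGFRA) and without CD45, CD11b and F4/80 (the labels also list CD3). They formed 4 groups: normal skin (NS) of wild-type (WT) mice, NS of Act mice, excisional wounds taken 5 days after injury (5dw) of WT mice, and 5dw of Act mice. Act mice carry INHBA, which encodes the activin A subunit, under the keratin 14 promoter, which directs the transgene to keratinocytes. The WT animals were littermates of the Act mice. Keratinocyte markers, Krt14 among them, were read in every library, as described below. Whether the sorted material held RNA of the transgene was not tested. All animals came from crosses of CD-1 Act mice with C57Bl/6 mice, were 9 to 12 weeks old, and were female according to the methods. Each library was made from RNA of 3 mice pooled across sorting sessions, so the spread between libraries is that between pools and not between single animals. By the methods, more RNA was put into the 5dw libraries than into the NS libraries, so RNA input differed along with the tissue. The part of this difference in the results was not tested. None of the sources used here gives the hour of tissue collection. There were 3 libraries each of WT NS, Act NS and WT 5dw, and 2 of Act 5dw (replicates 1 and 3), since the authors left out the other one after quality control.

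Levels are RPKM, that is, read counts scaled to transcript length and to the library's total of mapped reads. The mapped totals worked out from these values were 18649274 to 29718962 in the NS and Act 5dw groups and 38740428 to 39701847 in WT 5dw, a 2.13-fold range. The fibroblast markers were abundant in every library, with 10 of 10 listed genes summing to 12331 to 17936 RPKM in NS and 22957 to 26176 RPKM in 5dw. The keratinocyte markers, also 10 of 10, summed to 1103 to 2050 in WT NS, 1175 to 4305 in Act NS, 119 to 1026 in WT 5dw and 254 to 295 in Act 5dw, and none of them was at 0. The part of this shift in the clock gene results was not tested. Of the immune cell markers, 7 of 8 were found, and they summed to 12.3 to 43.5 in NS and 62.4 to 112 in 5dw. The T cell gene Cd3e made up most of it in 5dw, at 55.5 to 105 RPKM against 2.94 to 33.9 RPKM in NS, the macrophage gene Cd68 was at 6.16 to 12.0 RPKM in NS and 4.69 to 6.31 RPKM in 5dw, and the pan-leukocyte gene Ptprc was at 0.00822 to 0.0498 in all libraries. In the bulk RNA measured here, fewer cells that express a gene and less of its RNA per cell cannot be told apart.

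Promoter sequences of the members are shown first, with any letters in them that match the elements named above. RefSeq windows of 300 bases on GRCm38.p6 (250 before a transcription start and 50 from it on) were matched for 9 of the 10 members, all but Per2, as 14 windows. They were searched on both strands for the E-box CACGTG, for the E′-box, which reads CACGTT along one strand and AACGTG along the other, for the D-box in the forms TTATGTAA and TTACGTAA, and for the ROR response element. These occurred in 7.15%, 4.68%, 1.06% and 0.384% of all 32851 promoter windows, respectively, and 7 windows of 6 members held at least 1 of them. The stretches below run 5′ to 3′ on the strand of the gene, in lower case with the element in capitals. Those of Per1, Tef and Cry1 hold an E-box that begins 166, 138 and 60 bases before the start, that of Cry1 also an E′-box at 79 bases before it, that of Nr1d1 an E′-box at 28 bases before it, and that of Arntl a ROR response element beginning at base 27 of the transcript. A match of letters is a description and not evidence of binding.
Per1, chr11:69098753-69098852, plus strand: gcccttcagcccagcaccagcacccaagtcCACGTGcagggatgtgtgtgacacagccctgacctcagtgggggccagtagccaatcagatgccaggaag
Cry1, chr10:85185064-85185163, minus strand: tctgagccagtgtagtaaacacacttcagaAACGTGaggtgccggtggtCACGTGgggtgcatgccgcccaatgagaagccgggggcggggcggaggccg
Tef, chr15:81811246-81811345, plus strand: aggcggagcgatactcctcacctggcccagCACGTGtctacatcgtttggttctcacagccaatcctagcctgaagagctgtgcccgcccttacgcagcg
Nr1d1, chr11:98775378-98775477, minus strand: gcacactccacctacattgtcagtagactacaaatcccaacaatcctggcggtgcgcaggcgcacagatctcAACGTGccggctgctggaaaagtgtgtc
Arntl, chr7:113207527-113207556, plus strand: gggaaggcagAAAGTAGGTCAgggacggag
In the GENCODE M21 annotation of the same build the Per1 and Tef stretches lie in introns of transcripts that start further upstream, that of Nr1d1 lies before the gene, that of Cry1 lies before the gene but for its last base, and that of Arntl lies within the 5′ UTR of the first exon. The other windows with a match were an upstream Tef window, with an E-box 127 bases before its start, and that of Per3, with D-boxes 205 and 158 bases before the start. No element of these 4 was found in the windows of Clock, Nr1d2 and Dbp, which says only that these letters were not in the windows searched.

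The main question the design put to these genes was whether their RNA differed between wound and normal skin fibroblasts, in each genotype. Both activators, the repressors Per1 and Cry1 and the output factor Tef fell in 5dw in both genotypes, by 1.52-fold to 3.70-fold on the scale of RPKM + 0.5, while Per2, Nr1d2 and Dbp did not pass the test in either genotype. Nr1d1 fell in WT only, and the difference between the genotypes did not pass its own test. Across all 11979 genes tested with limma-trend, that is, those reaching an RPKM of 1 in 2 or more libraries, 58.3% passed an adjusted p under 0.05 between WT 5dw and WT NS (9.45% higher and 48.8% lower). Of the 9 members tested there, 6 were lower and 0 higher, and their median log2 fold change was -0.74 beside -0.40 for all genes. Between Act 5dw and Act NS, 45.6% of all genes passed (9.04% higher and 36.5% lower), 5 of the 9 members were lower and 0 higher, and the medians were -0.60 for the members and -0.31 for all genes. At an unadjusted p under 0.05 the same number of members passed, 6 and 5, with 63.4% and 53.4% of all genes. A fit by limma-voom to read numbers worked out from the RPKM values also gave 6 and 5 lower and 0 higher. In that fit, too, far more genes were lower than higher in WT (5815 against 1103), so it is not a check on the scaling.

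**Figure D1:**
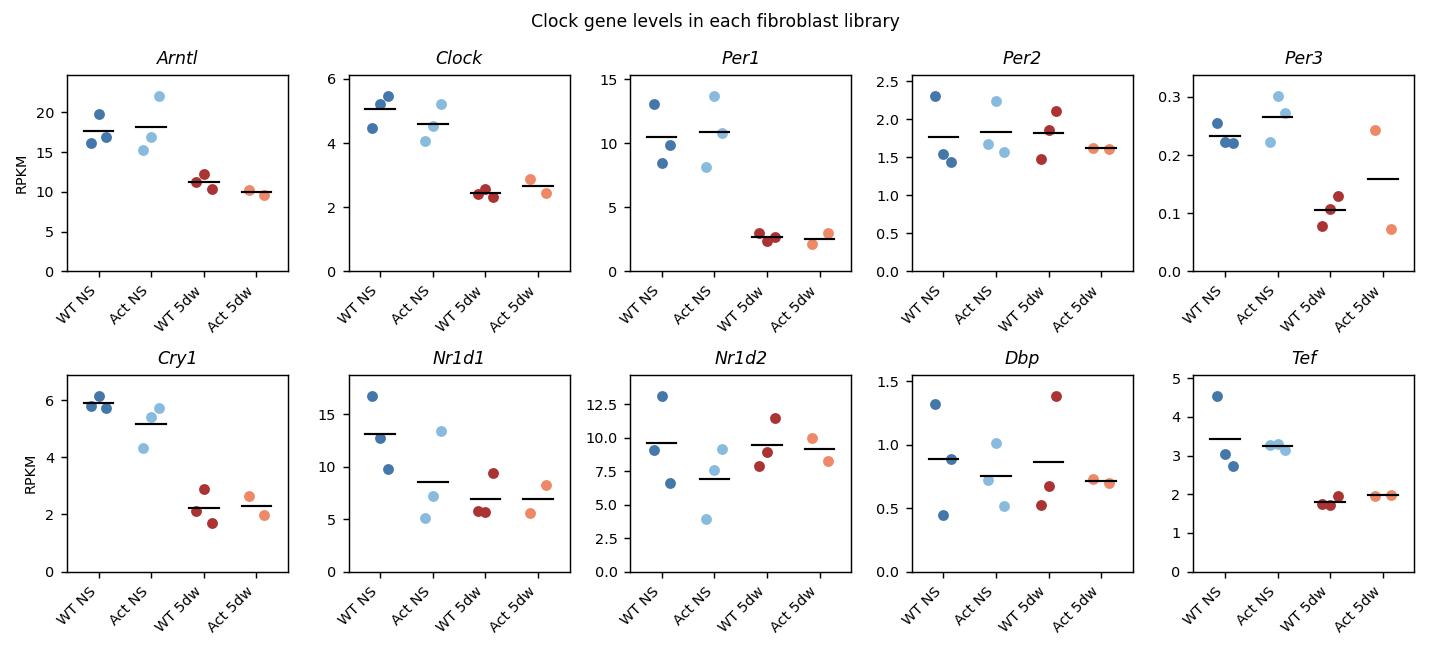
Level of each clock gene (vertical axis, RPKM, starting at 0 in each panel) in each of the 11 libraries, by group; points are libraries and bars are group means. In the panels of Arntl, Clock, Per1, Cry1 and Tef every 5dw point lies below every NS point, as for 38.9% of all genes tested. In those of Per2, Per3, Nr1d1, Nr1d2 and Dbp the tissues overlap.

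RPKM values depend on the rest of the library, and here the median gene was 0.40 (WT) and 0.31 (Act) lower on the log2 scale in 5dw, a shift that median-ratio scaling between libraries takes out (to 0.01 in both). After that scaling 23.4% of all genes were higher and 21.2% lower in WT 5dw, and 20.3% higher and 20.4% lower in Act 5dw. The members called lower then numbered 3 in WT (Per1, Cry1 and Clock) and 4 in Act (Per1, Cry1, Clock and Arntl), with 0 higher in both. Changes after this scaling are therefore given below beside those in RPKM for the tested members and the clock genes named from the lists.

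Arntl (chr7:113207465-113314126, plus strand), the partner that CLOCK needs to bind DNA, was at 16.2, 19.8 and 16.9 RPKM in WT NS and at 15.3, 16.9 and 22.1 RPKM in Act NS. In the wounds it was at 11.2, 12.2 and 10.3 RPKM in WT and at 10.3 and 9.58 RPKM in Act. All 5 wound libraries lay below all 6 NS libraries, which was so for 38.9% of all genes tested. The log2 fold change was -0.63 (SE 0.15, limma, adjusted p = 0.00434) in WT and -0.82 (SE 0.17, adjusted p = 0.00257) in Act. With median-ratio scaling the change in WT was -0.16 and no longer passed (limma, adjusted p = 0.327), whereas that in Act was -0.46 and did (adjusted p = 0.0268). The length behind the Arntl values was 2904 bases, against 7523 exon bases in the GENCODE M21 annotation, so its RPKM is on another length than the annotation's.

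Clock (chr5:76209868-76304792, minus strand), a bHLH-PAS transcription factor, was at 4.48, 5.23 and 5.48 RPKM in WT NS and at 4.08, 4.53 and 5.22 RPKM in Act NS. It was at 2.40, 2.56 and 2.33 RPKM in WT 5dw and at 2.86 and 2.43 RPKM in Act 5dw. The tissues did not overlap, and 807 to 2236 reads lay behind each value. Clock fell by 0.92 on the log2 scale (SE 0.12, limma, adjusted p = 0.000156) in WT and by 0.70 (SE 0.14, adjusted p = 0.00227) in Act. It also passed after median-ratio scaling, at -0.50 (limma, adjusted p = 0.00241) in WT and -0.38 (adjusted p = 0.021) in Act.

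Among the repressors, Per1 (chr11:69095217-69109960, plus strand) had the largest change of the members in both genotypes. Its promoter stretch above carries an E-box, as do those of Tef and Cry1, and a link of this element to the change was not tested. Per1 was at 13.1, 8.48 and 9.86 RPKM in WT NS and at 8.13, 13.7 and 10.8 RPKM in Act NS. In WT 5dw it was at 2.98, 2.39 and 2.67 RPKM, and in Act 5dw at 2.10 and 2.99 RPKM. The highest wound library was thus well below the lowest NS library, 2.99 against 8.13 RPKM. Per1 was 3.41-fold lower in WT 5dw (log2 fold change -1.77, SE 0.21, limma, adjusted p = 6.91e-05) and 3.70-fold lower in Act 5dw (log2 fold change -1.89, SE 0.23, adjusted p = 0.000139). The change after median-ratio scaling was -1.34 (limma, adjusted p = 0.000315) in WT and -1.56 (adjusted p = 0.00031) in Act.

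Per2 (chr1:91415982-91459324, minus strand), the paralog that, like PER1, forms repressor complexes with the cryptochromes, did not follow Per1. It was at 2.31, 1.54 and 1.44 RPKM in WT NS, 1.68, 2.24 and 1.57 RPKM in Act NS, 1.48, 1.86 and 2.10 RPKM in WT 5dw, and 1.62 and 1.61 RPKM in Act 5dw. The 4 groups overlapped, and the log2 fold change was 0.04 in WT (95% interval -0.34 to 0.43, limma, adjusted p = 0.842) and -0.13 in Act (95% interval -0.56 to 0.30, adjusted p = 0.621). Median-ratio scaling moved these to 0.41 (limma, adjusted p = 0.0747) and 0.16 (adjusted p = 0.537), and quantile normalization took Per2 in WT 5dw past the threshold as higher (log2 fold change 0.51, limma, adjusted p = 0.0402). The ratio of Per1 to Per2 in RPKM, which a single scaling factor per library leaves as it is, was 4.85 to 6.90 in the 6 NS libraries (median 5.90) and 1.27 to 2.01 in the 5 wound libraries (median 1.30). This ratio was picked after the values were seen and carries no test.

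Cry1 (chr10:85131700-85185064, minus strand), a cryptochrome that binds and blocks CLOCK and ARNTL, was at 5.80, 6.16 and 5.72 RPKM in WT NS and at 4.33, 5.43 and 5.73 RPKM in Act NS. The wound values were 2.12, 2.89 and 1.69 RPKM in WT and 2.63 and 1.98 RPKM in Act. No wound library reached the lowest NS library. The gene was 2.37-fold lower in WT 5dw (log2 fold change -1.25, SE 0.17, limma, adjusted p = 0.000176) and 2.02-fold lower in Act 5dw (log2 fold change -1.01, SE 0.19, adjusted p = 0.00171). With median-ratio scaling the changes were -0.83 (limma, adjusted p = 0.00183) and -0.70 (adjusted p = 0.00984).

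Per3 (chr4:151003652-151044665, minus strand), a period gene that is not needed for the rhythm itself, was too low for the test in all libraries, with 18 to 70 reads. It was at 0.256, 0.223 and 0.221 RPKM in WT NS, 0.222, 0.302 and 0.272 RPKM in Act NS, 0.0786, 0.107 and 0.129 RPKM in WT 5dw, and 0.243 and 0.0731 RPKM in Act 5dw. The WT groups did not overlap, as for 66.4% of all genes tested in one direction or the other. In Act, 1 of the 2 5dw libraries lay within the range of NS. Fitted without the filter on low values, its log2 fold change was -0.28 (limma, adjusted p = 0.05) in WT and -0.23 (adjusted p = 0.159) in Act, on a scale where the pseudocount of 0.5 exceeds every one of its values.

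The nuclear receptors had the largest standard errors of the tested members. Nr1d1 (chr11:98767932-98775333, minus strand) was at 16.7, 12.7 and 9.75 RPKM in WT NS and at 5.09, 7.16 and 13.4 RPKM in Act NS. It was at 5.82, 5.64 and 9.37 RPKM in WT 5dw and at 5.54 and 8.23 RPKM in Act 5dw. All WT NS libraries were above all WT 5dw libraries, which held for 66.4% of all genes in one direction or the other, but Act NS spanned the whole range of Act 5dw. The log2 fold change was -0.87 (SE 0.33, limma, adjusted p = 0.0396) in WT and -0.21 (SE 0.36, adjusted p = 0.659) in Act. The difference of these effects, 0.66 (SE 0.49), had an adjusted p of 0.999 (limma). Over the alternative fits, the change in Act ran from -0.51 to 0.15 and the difference from 0.36 to 1.02. With median-ratio scaling the change was -0.42 in WT, where the call was lost (limma, adjusted p = 0.309), and 0.14 in Act (adjusted p = 0.792). The call in WT was also lost when 1 of 4 libraries was left out, though the change stayed between -0.68 and -0.87. It was -0.68 without WT NS replicate 1 (limma, adjusted p = 0.129), -0.87 without WT NS replicate 2 (0.0777), -0.77 without WT 5dw replicate 1 (0.111) and -0.75 without WT 5dw replicate 2 (0.118). Nr1d1 shares 263 exon bases, 8.55% of its own, with Thra on the opposite strand, which was at 15.4 to 24.8 RPKM in NS and 11.2 to 13.8 RPKM in 5dw. The libraries were stranded, but none of those sources gives the strand setting of the counting.

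Nr1d2 (chr14:18204054-18239127, minus strand), which acts alongside Nr1d1 on the same elements, was at 9.07, 13.1 and 6.63 RPKM in WT NS, 3.94, 7.60 and 9.12 RPKM in Act NS, 7.90, 8.95 and 11.5 RPKM in WT 5dw, and 10.0 and 8.26 RPKM in Act 5dw. The groups of both genotypes overlapped between tissues. Its log2 fold change was 0.01 (95% interval -0.64 to 0.66, limma, adjusted p = 0.978) in WT and 0.45 (95% interval -0.28 to 1.18, adjusted p = 0.287) in Act. It was 0.46 and 0.80 after median-ratio scaling (limma, adjusted p = 0.202 and 0.0643). Over the alternative fits the change in Act ran from 0.12 to 0.80. The 95% intervals reach beyond a 1.5-fold change, so a difference of that size would not have been resolved.

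Of the PAR bZIP output factors, Tef (chr15:81802421-81826863, plus strand) was at 4.54, 3.03 and 2.72 RPKM in WT NS and at 3.27, 3.31 and 3.15 RPKM in Act NS. It was at 1.75, 1.71 and 1.96 RPKM in WT 5dw and at 1.96 and 1.97 RPKM in Act 5dw. The wound libraries were close to each other and all lay below NS. Tef fell by 0.74 on the log2 scale (SE 0.15, limma, adjusted p = 0.00211) in WT and by 0.60 (SE 0.17, adjusted p = 0.0154) in Act. Neither change passed after median-ratio scaling, at -0.34 (limma, adjusted p = 0.108) and -0.30 (adjusted p = 0.218), and with 1 of the 2 Act 5dw libraries left out, when the lone library is assumed to vary like those of the other groups, the change in Act was the same in size (-0.60) but did not pass (limma, adjusted p = 0.0693 without replicate 1 and 0.0735 without replicate 3).

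Dbp (chr7:45705088-45710203, plus strand), among the genes with the strongest daily rhythm in most tissues, was at 1.32, 0.447 and 0.882 RPKM in WT NS and at 0.722, 1.01 and 0.519 RPKM in Act NS. It was at 0.525, 0.677 and 1.38 RPKM in WT 5dw and at 0.726 and 0.698 RPKM in Act 5dw. Both the lowest and the highest values occurred within WT, and the range of each tissue overlapped most of the other's. The log2 fold change was -0.02 (95% interval -0.64 to 0.59, limma, adjusted p = 0.948) in WT and -0.03 (95% interval -0.72 to 0.66, adjusted p = 0.95) in Act, and 0.27 and 0.19 after median-ratio scaling (limma, adjusted p = 0.456 and 0.655). These values rest on 14 to 90 reads, and 539 of the 2993 exon bases that GENCODE M21 gives for Dbp (18.0%) are shared with Sphk2 on the opposite strand, which was at 1.15 to 4.64 RPKM. The length behind the Dbp values was 1678 bases, so the shared part of the bases counted is not known. For Cry1 and Nr1d2 that length was 3014 and 5001 bases, against 3340 and 5409 in GENCODE M21.

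**Figure D2:**
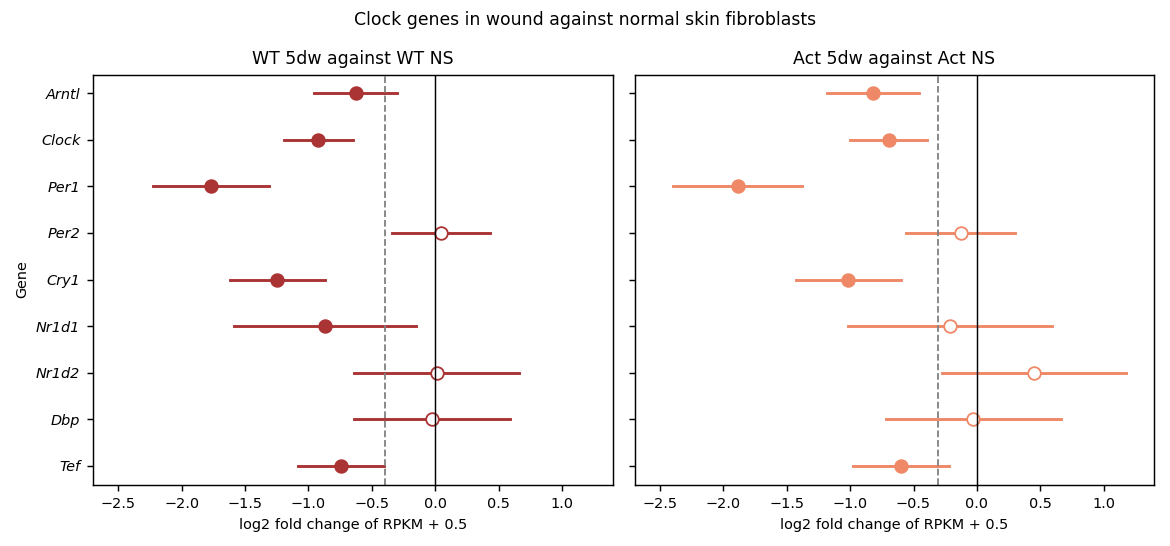
Log2 fold change of RPKM + 0.5 between 5dw and NS (horizontal axis) for the 9 tested clock genes, in WT (left) and Act (right); lines are 95% intervals, filled points passed an adjusted p under 0.05 (limma), and the dashed line is the median of all genes. Per1 lies furthest to the left at -1.77 and -1.89, while Per2, Nr1d2 and Dbp have intervals that include 0 in both genotypes.

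The genotype comparison asked whether activin from keratinocytes went with other clock gene levels in the fibroblasts. In NS, 0.0167% of all genes passed between Act and WT, and 0 of the 9 members did, with 0 by limma-voom and 0 at an unadjusted p under 0.05, which 6.88% of all genes passed. Nr1d1 differed most, -0.66 (SE 0.33, 95% interval -1.38 to 0.06, limma, unadjusted p = 0.0692, adjusted p = 0.701), followed by Nr1d2 at -0.47 (95% interval -1.13 to 0.18, adjusted p = 0.702). For both genes the Act NS and WT NS libraries overlapped, and the lowest Act NS value was that of replicate 1, the library with the lowest summed RPKM of all (225686). Without it the differences were -0.36 for Nr1d1 and -0.14 for Nr1d2, and without Act NS replicate 3 they were -1.02 and -0.70. That of Nr1d2 was -0.23 without WT NS replicate 2. None of these passed (limma, adjusted p = 0.438 to 0.96). The other 7 members differed by -0.18 (Cry1) to 0.05 (Per2) on the log2 scale, and the median of the 9 was -0.11, as for all genes.

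In 5dw, 0.0334% of all genes passed between Act and WT, and again 0 of the 9 members did, with 0 by limma-voom and 0 at an unadjusted p under 0.05, which 3.22% of all genes passed. Their log2 differences lay between -0.17 (Arntl, 95% interval -0.53 to 0.20) and 0.10 (Clock, 95% interval -0.20 to 0.40), and every adjusted p was 1 (limma). The interval was widest for Nr1d1, whose difference was 0.000248 (95% interval -0.80 to 0.80). For the difference between the effects of wounding in Act and in WT, 0% of all genes and 0 of the 9 members passed (limma, all adjusted p = 0.999, with 0 members by limma-voom and 0 at an unadjusted p under 0.05, which 3.34% of all genes passed). In RPKM, the levels of Arntl, Clock, Per1, Cry1 and Tef thus fell into an upper pair of groups, WT NS and Act NS, and a lower pair, WT 5dw and Act 5dw. Within either pair no difference between the genotypes passed the test. Under median-ratio scaling the tissue difference did not pass for Arntl in WT (-0.16, limma, adjusted p = 0.327). Nor did it pass for Tef in WT (-0.34, limma, adjusted p = 0.108) or in Act (-0.30, adjusted p = 0.218). Of the genes with this split in RPKM, Arntl was lower in both Act 5dw libraries than in all 3 WT 5dw libraries. The margin was narrow (at most 10.28 against at least 10.31 RPKM), and 23% of all genes showed such a separation in one direction or the other.

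Other genes of the clock were read from a list of 24, of which 20 passed the filter on low values. In WT, 14 of these fell and 0 rose (median log2 fold change -0.70), where 48.8% of all genes were called lower and the median gene stood at -0.40. In Act 12 fell and 0 rose (median -0.62), where 36.5% of all genes were called lower and the median gene stood at -0.31. After median-ratio scaling 8 were lower and 3 higher in WT (Npas2, Nono and Hdac3, which had not passed before), beside 21.2% of all genes lower and 23.4% higher. In Act 7 were then lower and 1 higher (Nono), beside 20.4% of all genes lower and 20.3% higher. Without Arntl2, Bhlhe41 and Hlf, which passed the filter only through NS libraries so that a difference between the tissues was built into their entry, 11 of 17 fell in each genotype (medians -0.74 in WT and -0.62 in Act), a count made after the values were seen. A list of 7 genes commonly used as outputs of the clock had 6 tested, of which 5 fell in WT (median -1.09) and 4 in Act (median -0.91), with 0 higher, beside the same shares and medians of all genes. After median-ratio scaling 3 of the 6 were lower in WT (median -0.67) and 3 in Act (median -0.57), beside the shares of all genes given for that scaling. Of the 6, Usp2 passed the filter only through NS, and without it 4 of 5 fell in WT (median -0.84) and 3 of 5 in Act (median -0.48).

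Among the core loop genes of the list, Cry2, the second cryptochrome, was at 4.19 to 6.95 RPKM in NS and 1.87 to 2.28 RPKM in 5dw. It changed by -1.21 (SE 0.17, limma, adjusted p = 0.000177) in WT and -1.23 (SE 0.18, adjusted p = 0.000488) in Act. Median-ratio scaling moved these to -0.80 and -0.92. Rora, which activates Arntl through the element that the REV-ERB receptors occupy, was at 5.61 to 6.84 RPKM in NS and 2.46 to 3.35 RPKM in 5dw. Its log2 fold change was -1.10 (SE 0.13, limma, adjusted p = 8.55e-05) in WT and -1.04 (SE 0.15, adjusted p = 0.000363) in Act. The scaling moved these to -0.68 and -0.72. Ncor1, the corepressor that REV-ERB proteins recruit, fell by 0.81 in WT and by 0.62 in Act on the log2 scale. After the scaling it fell by 0.37 and by 0.28. Btrc, a subunit of the ubiquitin ligase that marks phosphorylated PER proteins, was at 2.42 to 3.19 RPKM in NS and 1.50 to 1.71 RPKM in 5dw. Its log2 fold changes were -0.76 and -0.62. They were -0.37 and -0.33 after the scaling.

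Of the output genes, Usp2, a deubiquitinase, was at 2.26 to 3.21 RPKM in NS and 0.220 to 0.260 RPKM in 5dw, with log2 fold changes of -2.20 in WT and -2.05 in Act (-1.91 and -1.86 after median-ratio scaling). Hlf, the PAR bZIP relative of Dbp and Tef and a gene of the first list, was at 1.03 to 1.52 RPKM in NS and 0.0695 to 0.182 RPKM in 5dw with changes of -1.52 and -1.42 (-1.30 and -1.27 after scaling). Pdk4, a kinase that holds back pyruvate dehydrogenase, changed by -1.70 in WT and -1.76 in Act (-1.30 and -1.47 after scaling). Por, the electron donor of the microsomal cytochromes P450, changed by -1.33 and -1.35 (-0.87 and -0.995 after scaling). The 8 genes named from these lists were those with the smallest adjusted p in WT, so their values describe the strongest changes and not the lists.

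**Figure D3:**
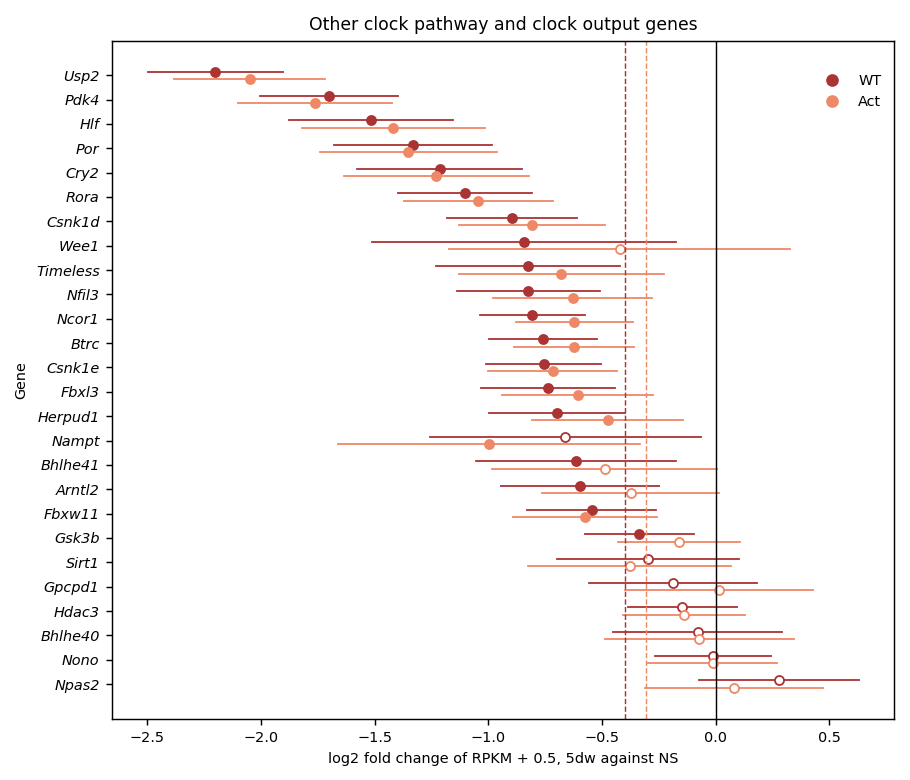
Log2 fold change of RPKM + 0.5 between 5dw and NS (horizontal axis) for the 26 tested genes of the lists of other clock pathway genes and clock output genes, in WT (dark) and Act (light); lines are 95% intervals, filled points passed an adjusted p under 0.05 (limma), and dashed lines are the medians of all genes. Usp2 lies furthest to the left at -2.20 and -2.05, and Npas2 furthest to the right at 0.28 and 0.08.

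Per1 is also known as an immediate-early gene and as a target of the glucocorticoid receptor, so genes of both kinds were read beside it. The first list held 9 immediate-early and 3 heat-shock genes, all tested, which summed to 6204 to 9888 RPKM in NS and 5636 to 7001 RPKM in 5dw. Of these 12, 5 passed in WT (median of the list -0.22, beside -0.40 for all genes), namely Junb, Atf3 and the heat-shock genes Hspa1a and Hspa1b as lower and the heat-shock gene Dnajb1 as higher. In Act 3 passed, all of them heat-shock genes, with Hspa1a and Hspa1b lower and Dnajb1 higher (median -0.09, beside -0.31 for all genes). These are shares below the 58.3% and 45.6% of all genes called, and after median-ratio scaling 3 genes of the list were higher and 0 lower in each genotype (medians 0.26 in WT and 0.28 in Act), beside 23.4% and 20.3% of all genes higher under that scaling. By mean RPKM over all 11 libraries the most abundant were Fos, at 907 to 1742 RPKM in NS and 1127 to 1337 RPKM in 5dw, Fosb at 717 to 1144 and 707 to 1022 RPKM, and Egr1 at 645 to 1152 and 665 to 813 RPKM, and these 3 did not pass the test. Junb, which in NS stood above Fosb and Egr1 in mean level, was at 687 to 1300 RPKM in NS and 452 to 647 RPKM in 5dw and fell by 0.73 in WT on the log2 scale (limma, adjusted p = 0.0163); it is named here after its values were seen.

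The genes raised by glucocorticoids, 8 of 8 tested, summed to 1167 to 2211 RPKM in NS and 1452 to 2104 RPKM in 5dw. In each genotype 5 of them passed (1 higher and 4 lower), beside 58.3% of all genes in WT and 45.6% in Act, with medians of -0.84 in WT and -0.87 in Act. The most abundant over all 11 libraries were the metallothionein Mt2 and the EGF receptor inhibitor Errfi1, which did not pass, and the transcription factor Cebpd, which was at 142 to 225 RPKM in NS and 44.5 to 113 RPKM in 5dw and changed by -1.43 in WT (limma, adjusted p = 0.00138). The 1 higher gene was Sgk1, a kinase, at 41.7 to 62.1 RPKM in NS and 95.1 to 149 RPKM in 5dw, with log2 fold changes of 1.38 in WT and 0.99 in Act. The other lower genes, named after their values were seen, were Tsc22d3 (-2.33 in WT and -2.77 in Act), Klf9 (-1.41 and -1.54) and Zbtb16 (-2.75 and -2.84), the last of which passed the filter only through NS. After median-ratio scaling 2 of the 8 were higher and 4 lower in WT (median -0.37), beside 23.4% of all genes higher and 21.2% lower. In Act 1 was then higher and 4 lower (median -0.51), beside 20.3% of all genes higher and 20.4% lower. The part of either list in the Per1 result was not tested.

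The keratinocyte markers moved with the same comparison, 9 of 10 lower in both genotypes (medians -2.94 in WT and -3.36 in Act). The count was 7 of 8 without Epcam and Lor, which passed the filter only through NS. Schwann cell markers, 4 genes, summed to 3.31 to 9.43 RPKM in NS and 0.467 to 0.723 RPKM in 5dw. The 2 tested passed the filter only through NS. The sum of 5 endothelial markers was 5.73 to 10.5 RPKM in NS and 15.9 to 18.0 RPKM in 5dw and followed Pecam1 (3.39 to 5.66 and 11.5 to 14.0 RPKM). Pecam1 was the 1 called higher, in both genotypes, of 2 that passed the filter in both tissues. Kdr, the other, overlapped between the tissues. Cdh5 passed only through 5dw. Vwf was not tested and was at 0.133 to 0.222 RPKM in NS and 0.0241 to 0.112 RPKM in 5dw. The sum of 4 muscle markers was 2.59 to 5.61 RPKM in NS and 1.52 to 2.19 RPKM in 5dw, and the 1 tested was lower in both genotypes. Of 5 pericyte markers, all tested, 1 was higher and 2 lower in WT, and 2 were higher and 1 lower in Act. The part of these marker changes in the clock gene results was not tested. Among the wound libraries the sum of the keratinocyte markers was highest in WT 5dw replicate 3, at 1026 RPKM against 1103 RPKM in the lowest NS library. In that library Per1 (2.67 RPKM) and Arntl (10.3 RPKM) lay within the range of the other wound libraries, Cry1 (1.69 RPKM) and Clock (2.33 RPKM) were the lowest of the 5, and Nr1d1 (9.37 RPKM), Nr1d2 (11.5 RPKM), Dbp (1.38 RPKM) and Per2 (2.10 RPKM) were the highest.

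The members also differed between libraries of the same group, and did so in part together. With each gene's log2 value centred on its group mean, over the 11 libraries (7 residual degrees of freedom), Dbp and Per2 had a Pearson r of 0.82 (Spearman rho 0.68, and r = 0.84 over the 9 libraries left without those farthest from the median of Dbp), and Per2 and Tef had an r of 0.79 (rho 0.73, r = 0.67 over 9). Arntl and Clock had an r of 0.79 (rho 0.75, r = 0.73 over 9), and Nr1d1 and Nr1d2 of 0.67 (rho 0.69, r = 0.49 over 9). Arntl and Dbp, which peak about opposite hours of the day in mouse tissues, had an r of -0.67 (rho -0.75), which fell to -0.49 over 9 libraries. These are descriptions of 5 pairs picked among 36, and both genes of a pair share the library, its depth and its scaling.

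Dbp and Per2 were highest for their group in WT NS replicate 1, Act NS replicate 2 and WT 5dw replicate 3, where Dbp stood 0.45, 0.29 and 0.52 above its group mean on the log2 scale, Per2 stood 0.33, 0.25 and 0.18 above it, and Arntl deviated by -0.11, -0.08 and -0.12. Nr1d1 ranged furthest, from -0.59 in Act NS replicate 1 to 0.72 in Act NS replicate 3. The log2 difference between Arntl and Dbp, a contrast within a library, averaged 3.76 ± 0.62 over the 3 WT NS libraries (mean ± SD), 3.90 ± 0.51 over 3 of Act NS, 3.15 ± 0.55 over 3 of WT 5dw and 3.11 ± 0.04 over the 2 of Act 5dw. Single libraries went from 2.52 in WT 5dw replicate 3 to 4.47 in Act NS replicate 3, and NS and 5dw overlapped.

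**Figure D4:**
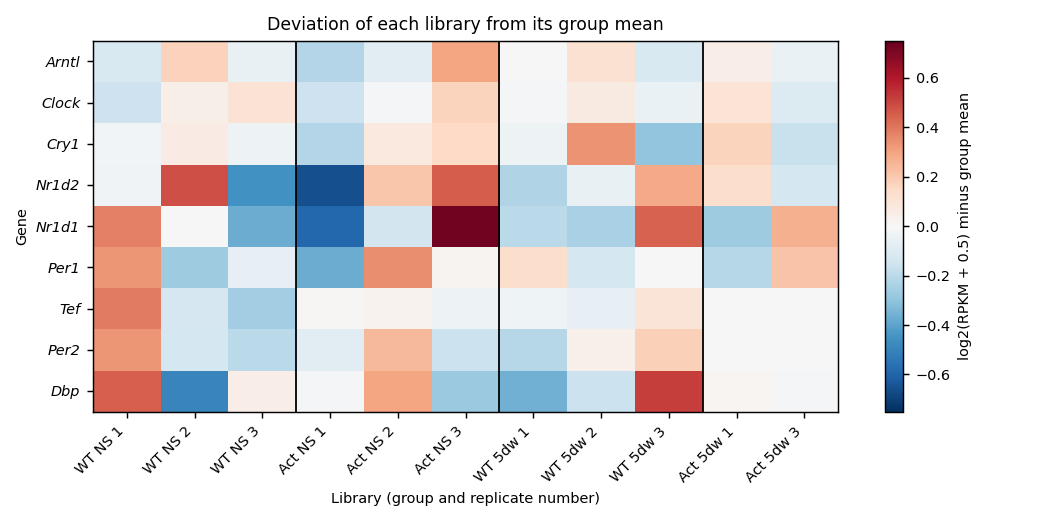
Deviation of each library (columns, by group and replicate) from its group mean in log2(RPKM + 0.5) for the 9 tested clock genes (rows), with red above and blue below the mean; vertical lines part the 4 groups. Dbp, Per2 and Tef are red together in WT NS 1 and WT 5dw 3, and Nr1d1 reaches 0.72 in Act NS 3.

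The tested genes whose centred values were most like those of Dbp over the 11 libraries were Gm14633 (Pearson r = 0.95), Aifm2 (0.94) and Oxld1 (0.94), and those most like Arntl were Pole4 (0.97), Ccnt2 (0.94) and Tmem170 (0.94). These are the highest of 11979 values in each case, and no other member of the clock list was among them.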

How the data were processed

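Poly-A RNA of sorted fibroblasts was sequenced with stranded libraries. Alignment to GRCm38 and counting per gene were done by the authors with the CLC Genomics Workbench, and the deposited table gives RPKM for 47643 gene symbols in 11 libraries. They tested genes with the edgeR exact test, which takes counts and was not used on RPKM values. Mapped totals and read numbers were worked out from RPKM, GENCODE M21 exon lengths and the whole-number steps of low values. Within a tolerance of 0.03 reads, 77.4% to 78.8% of the values checked per library came out whole. Depth was 18649274 to 39701847 mapped reads per library by this inference, a range like the one in the labels, while the methods give 1 rounded figure for all samples, and Dbp and Per3 rest on the fewest reads.

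Genes with RPKM of 1 or more in 2 or more libraries (11979) were fitted as log2(RPKM + 0.5) with limma-trend (limma 3.58.1, R 4.3.3), with 4 group means over all libraries, and p-values were adjusted after Benjamini and Hochberg over all of them. A gene was called at an adjusted p under 0.05. Fold changes on this scale understate changes of low genes. The script was tested on simulated data. Motifs were searched in RefSeq promoter windows with Python 3.11.15.

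All 10 members were named. Of the lists of other clock and output genes, those with the 8 smallest adjusted p in WT 5dw against WT NS were named, and of the immediate-early and glucocorticoid lists the 3 most abundant each, with the 3 tested genes most correlated with Dbp and with Arntl. The members, lists and tests were chosen with earlier results of these data known. Alternatives were pseudocounts of 0.1 and 1, no filter and a filter at RPKM 5, median-ratio scaling, quantile normalization, a replicate block, a fit of only the compared groups, no trend, array weights, each library left out in turn and, chosen after seeing the data, limma-voom on the recovered reads.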

Additional observations from a re-analysis of the deposited data

How the results depend on the processing

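The members called lower numbered 6 (WT) and 5 (Act) between 5dw and NS. They were 3 in WT with median-ratio scaling and 3 in Act with quantile normalization, and leaving out 1 library at a time gave 5 to 6 in WT and 4 to 5 in Act. Of the other clock pathway genes, 14 (WT) and 12 (Act) were called, 9 in WT with a filter at RPKM 5, which tests fewer genes, and 13 to 15 in WT and 9 to 13 in Act with 1 library left out. The genotype and interaction comparisons gave 0 members in every alternative run. Over all 5 comparisons there were 966 member values under alternatives. Of these, 948 stayed on their side of the threshold, 17 calls were lost, 1 was gained (Per2 in WT, with quantile normalization) and 0 reversed. The genotype and interaction comparisons had no member call to lose, so the 948 says little about how stable the wounding calls are. All 17 lost calls were among the 6 (WT) and 5 (Act) calls between 5dw and NS. Nr1d1 in WT accounted for 8 of the lost calls, among them no filter (adjusted p = 0.0869, limma) and array weights (0.0663), and Arntl in WT (0.0537), Clock in Act (0.0502) and Tef (0.247 in WT, 0.417 in Act) were lost with quantile normalization. Why the scalings differ for these genes was not tested. The mean difference between Arntl and Dbp was 4.44 in Act NS and 3.63 in Act 5dw with a pseudocount of 0.1, and 2.67 in Act 5dw with a pseudocount of 1, since Dbp is close to these pseudocounts.

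Replicate numbers are shared by the groups, but no source says that they mark a shared day or animal. The 15 pairs of libraries with the same number had correlations of their deviations from the group means of -0.12 to 0.55 (median 0.19), 12 of them over 0.1. For the 30 pairs with different numbers the median was -0.14, with 5 over 0.1, and 9 of 11 libraries correlated best with one of their own number. Deviations cancel out within a group, so higher values at the same number go with lower ones at different numbers. The pairs are thus not independent, and these counts are a description. With the replicate block, 6 members were called in WT and 5 in Act, 15 and 13 of the other clock pathway genes, and 0 members in the remaining comparisons, and the block changed no call of a member.

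Depth limits Dbp (14 to 90 reads) and Per3 (18 to 70 reads).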
